A study of Homo sapiens with 4 samples.

Results

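The genes described here are 10 components of interleukin 6 (IL6) signalling through Janus kinases and STAT transcription factors. They are the receptor chains IL6R and IL6ST, the kinases JAK1, JAK2 and TYK2, the transcription factors STAT3, STAT5A and STAT5B, and the inhibitors SOCS2 and SOCS3. The 10 genes were selected by name with earlier results of these same libraries known. Their differences between the groups are therefore given as a description, and the adjusted p-values beside them are only the place of each gene in a fit across all genes. All 10 were found among the 60606 genes of the count table, and 9 of them had enough counts to be tested. SOCS3 did not.

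RNA was sequenced from DaroR cells, an LNCaP line grown resistant to darolutamide. According to the study, DaroR cells were kept in medium that contained darolutamide. LNCaP is an androgen receptor-positive human prostate cancer cell line, and darolutamide is an androgen receptor antagonist. The study asked what the long non-coding RNA LOC730101 does in these resistant cells. In the siControl group, 2 libraries came from cells transfected with a control siRNA. In the siLOC730101 group, 2 libraries came from cells transfected with a pool of siRNAs against LOC730101. All 4 libraries were made from poly(A) RNA of the same resistant line, so both groups share the resistance and neither holds parental LNCaP cells. The labels do not say whether the 2 libraries of a group came from separate cultures, so the p-values measure the spread between these libraries, which may be technical.

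IL6 binds IL6R, and the pair then engages IL6ST (gp130), the chain that carries the signal for the whole IL6 cytokine family. Kinases of the JAK family bound to the receptor chains phosphorylate them and then the STAT proteins, which dimerize, enter the nucleus and bind DNA. CISH and some of the SOCS genes are induced by STATs and switch the pathway off. In prostate cancer the pathway is known for links to growth under androgen deprivation, and LNCaP cells are known for little JAK1 and for making little IL6 of their own. RNA levels do not show whether any of these proteins was phosphorylated.

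The libraries held 39213498 to 53368158 counts, and the siLOC730101 mean was 80.4% of the siControl mean. LOC730101, listed as ENSG00000216775, was counted 2560 and 2370 times in the control libraries and 633 and 680 times after the knockdown, a log2 fold change of -1.56 (SE 0.12, edgeR adjusted p = 4.34e-06). All 10 markers of prostate luminal epithelium were counted in every library, at summed normalized CPM (counts scaled to library size) of 7036 to 7755 in siControl and 7611 to 7933 in siLOC730101. Leukocyte markers summed to 1.35 to 1.46 CPM in siControl and 0.948 to 1.39 in siLOC730101, with PTPRC, CD3E and MS4A1 at 0 throughout. Fibroblast markers summed to 15.98 to 20.5 and 16.5 to 17.3 CPM, with COL1A2 and LUM at 0. Endothelial markers summed to 6.79 to 9.44 and 5.84 to 7.01 CPM, with CDH5 and TEK at 0. Counted in every library were 1 of 8 leukocyte, 3 of 6 fibroblast and 1 of 5 endothelial markers. Of all these markers 0 passed edgeR's test, which 0.284% of all genes tested passed. In these bulk samples a smaller share of cells with a transcript and less of it in each cell cannot be told apart.

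The title of the study names miR-1-3p as the microRNA that LOC730101 suppresses. A microRNA represses messages whose 3′ UTR pairs with its seed, so the mature sequence is shown (RefSeq, GRCh38.p14, MIR1-1, chr20:62554351-62554372, plus strand), followed by the only matches to seed bases 2 to 7 in the 3′ UTRs of the 10 genes. Capitals mark the seed, bases 2 to 8, in the microRNA and the matching bases in the UTRs. The UTR stretches are from 1 canonical transcript a gene in the GRCh37 annotation, all on the minus strand.

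hsa-miR-1-3p: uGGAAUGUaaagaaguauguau
IL6ST 3′ UTR, chr5:55236747-55236752: gagctatttcCATTCCagaatatctg
JAK1 3′ UTR, chr1:65299489-65299494: aatcagaactCATTCCcagaacctgg
STAT5B 3′ UTR, chr17:40352657-40352662: caggtcacctCATTCCccttctctgt

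The 3′ UTR of IL6R, 4070 bases long, held no match to the 6 bases CATTCC. The full 7-base complement ACATTCC was found in 0 of the 10 UTRs, against 13.3% of the UTRs of 13499 genes tested. Among the 1797 genes whose UTR had at least 4000 bases, 37.9% held it. IL6ST had 1 match followed by an A, a form found in 15.9% of the 13499 genes, and JAK1 and STAT5B had 1 shorter match each, while 35.8% of these genes held CATTCC at least once. The median UTR of these genes had 1305 bases, and the share with CATTCC among long UTRs alone was not computed. A match is a run of letters, and its absence says nothing of sites elsewhere in the message.

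The receptor chain IL6R was the member that differed most clearly. The gene lies on chr1:154405193-154469450 (plus strand, hg38). Its siControl counts were 6232 and 5513, and its siLOC730101 counts were 3329 and 2966. As normalized CPM, which is edgeR's library-scaled count after TMM, these were 115.3 and 117.8 in siControl and 81.0 and 78.1 in siLOC730101. Both siLOC730101 libraries lay far below both siControl libraries, and the libraries of a group lay close together. The mean dropped from 116.5 ± 1.77 to 79.6 ± 2.05 CPM (SD, n = 2 each), a reduction of 31.7%. The log2 fold change of IL6R was -0.55 (SE 0.081, 95% interval -0.72 to -0.38), with an adjusted p of 0.00564 in edgeR's quasi-likelihood test over 19349 genes. With 2 libraries against 2, the smallest two-sided p that exact permutation of 1 gene can reach is 0.333.

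Few genes passed the test. Of the 19349 genes tested, 41 were higher and 14 lower at an adjusted p under 0.05, which is 0.284% in either direction and 0.0724% lower. These numbers depend on the analysis, with 234 higher and 63 lower in DESeq2, and 923 higher and 272 lower in edgeR without siLOC730101 replicate 1. Among the 9 members tested, 1 passed, and that was IL6R. By size, IL6R had the 7th lowest log2 fold change of the 14 lower genes. It did not stand out by size alone, since 438 of the 14245 genes with a mean count above 50 had a lower log2 fold change, most of them without passing the test. In all 14 alternative analyses IL6R kept its direction and passed the threshold, with log2 fold changes from -0.59 to -0.53 and edgeR or DESeq2 adjusted p-values from 2.22e-08 to 0.00885.

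IL6ST, the signalling partner of IL6R, is on chr5:55935095-55995022 (minus strand). Its normalized CPM was 161.9 and 151.4 in siControl and 157.7 and 145.9 in siLOC730101. The groups overlapped. The log2 fold change was -0.045 (95% interval -0.21 to 0.12, edgeR adjusted p = 0.904), and its sign depended on which library was left out. Only 15 of the 100-base windows of its transcript (0.168%) were also found in its pseudogene IL6STP1 or in ENSG00000276855.

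**Figure D1:**
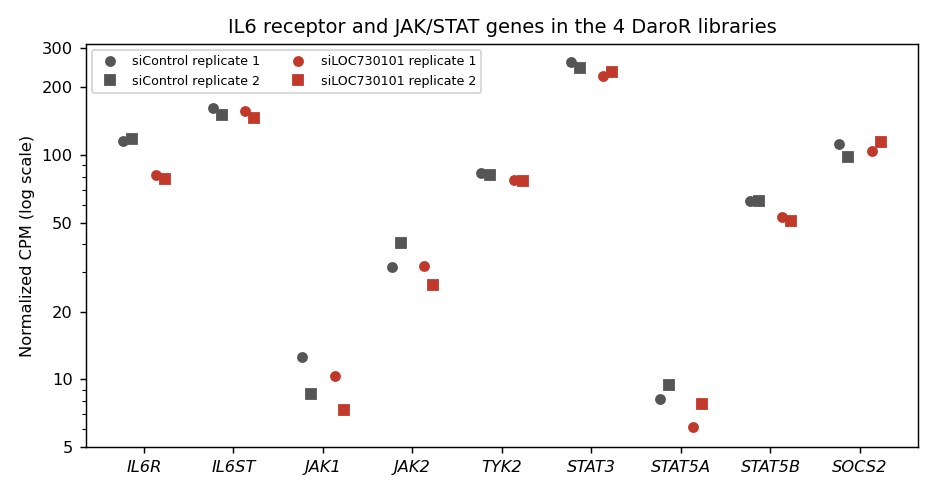
Normalized CPM (vertical axis, log scale) of the 9 members with enough counts in each of the 4 libraries; grey points are siControl and red points siLOC730101, circles replicate 1 and squares replicate 2. IL6R dropped from 115.3 and 117.8 to 81.0 and 78.1, while the points of IL6ST, JAK1, JAK2 and SOCS2 overlapped between the groups.

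The balance of the receptor chains can be read within each library as a ratio of levels per kilobase of exon, which does not depend on the scaling between libraries. IL6R stood at 1.23 and 1.34 times the IL6ST level in siControl and at 0.886 and 0.923 times in siLOC730101. The ratio was above 1 in both siControl libraries and below 1 in both siLOC730101 libraries. With the length of the canonical transcript in place of the exon length of the table, an alternative chosen after the data were seen, the ratios were 1.12 and 1.22 against 0.804 and 0.839. The ratio repeats the difference in IL6R and is not separate evidence of it.

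**Figure D2:**
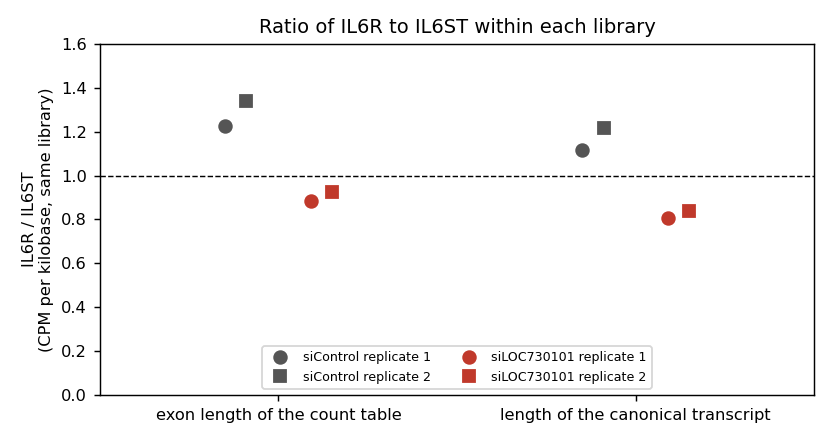
Ratio of IL6R to IL6ST (vertical axis, CPM per kilobase in the same library, from 0) in the 4 libraries with 2 choices of gene length; the dashed line marks equal levels. Both siControl points lie above the line and both siLOC730101 points below it with either length.

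Of the 9 other genes tested within 200 kb of IL6R on chromosome 1, 0 passed edgeR's test, and their smallest adjusted p was 0.144. Only 0.284% of all genes tested passed, so 0 of 9 lies near that share. The 7 with a mean count above 50 had log2 fold changes from -0.16 to 0.31. HAX1 had the highest of them, at 0.31 (edgeR adjusted p = 0.144). IL6R-AS1, an antisense transcript that begins near the IL6R start, had 72, 135, 62 and 86 counts, with siControl first, and a log2 fold change of -0.16. The exons of IL6R shared no base with those of another gene of the table.

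The genes whose pattern over the 4 libraries was most like that of IL6R were EMX1, MEGF9 and ENSG00000267666. Likeness was the root mean square difference of centred log2 normalized CPM among the 14245 genes with a mean count above 50, and it was 0.025, 0.030 and 0.035. MEGF9 had 27.5 and 28.1 normalized CPM in siControl then 19.0 and 17.7 after siLOC730101, with a log2 fold change of -0.60 (edgeR adjusted p = 0.0508).

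The kinases were less distinct. TYK2 (chr19:10350533-10380608) had 83.3 and 81.3 normalized CPM in siControl and 77.0 and 76.3 in siLOC730101. The siLOC730101 values lay just below the siControl values, with a log2 fold change of -0.10 (95% interval -0.28 to 0.074, edgeR adjusted p = 0.725).

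JAK2 (chr9:4984390-5129948), a kinase that serves many cytokine receptors including those for growth hormone and prolactin, had 31.8 and 40.6 normalized CPM in siControl and 32.0 and 26.3 in siLOC730101. The groups overlapped, since the first siControl library lay below the first siLOC730101 library. Its log2 fold change was -0.31 (95% interval -0.60 to -0.027, edgeR adjusted p = 0.404). Without siLOC730101 replicate 1 it was -0.45, with an edgeR adjusted p of 0.0250, and without siControl replicate 2 it was -0.12, with an adjusted p of 0.951.

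JAK1 (chr1:64833223-65067754), the kinase most closely tied to gp130, was low. It had 681, 403, 426 and 277 counts, or 12.6 and 8.61 normalized CPM in siControl and 10.4 and 7.30 in siLOC730101. The libraries of each group differed from each other by more than the group means did. Its log2 fold change was -0.26 (95% interval -0.73 to 0.20, edgeR adjusted p = 0.729), and it turned to 0.039 without siControl replicate 1 (adjusted p = 0.977).

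Per kilobase of exon, TYK2 stood at 10.2, 14.6, 11.5 and 16.2 times JAK1 in the 4 libraries, with siControl first. JAK2 stood at 4.21, 7.85, 5.15 and 5.996 times JAK1. With canonical transcript lengths the TYK2 ratios were 7.94, 11.3, 8.91 and 12.5, and the JAK2 ratios only 1.83, 3.42, 2.24 and 2.61. The order TYK2, JAK2, JAK1 therefore held in every library, and neither gene's ratios to JAK1 separated the groups.

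The STAT genes lie side by side on chromosome 17. STAT5B, STAT5A and STAT3 fill the 189.4 kb from 42199176 to 42388540. STAT3, the main STAT downstream of gp130, had 259.0 and 244.9 normalized CPM in siControl and 224.5 and 235.0 in siLOC730101. The groups did not overlap, but the gap between them was smaller than the distance between the siControl libraries. The log2 fold change of STAT3 was -0.13 (95% interval -0.29 to 0.025, edgeR adjusted p = 0.555).

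STAT5B and STAT5A encode closely related factors that act after growth hormone, prolactin and many cytokines. STAT5B had 62.1 and 62.3 normalized CPM in siControl and 53.1 and 50.6 in siLOC730101. Both siLOC730101 values lay below both siControl values, with a log2 fold change of -0.26 (95% interval -0.45 to -0.071) that did not pass the test over all genes (edgeR adjusted p = 0.259). STAT5A was lower in level, with 8.18 and 9.42 normalized CPM in siControl and 6.11 and 7.74 in siLOC730101, with a log2 fold change of -0.35 (95% interval -0.77 to 0.081, edgeR adjusted p = 0.574). Leaving out siLOC730101 replicate 1 gave -0.17, and leaving out siLOC730101 replicate 2 gave -0.53.

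STAT5A and STAT5B cannot be fully separated by counting. They overlap by 415 exon bases on opposite strands, 6.50% of the exon bases of STAT5A and 3.43% of those of STAT5B, and the counting command had no strand option. In addition, 371 of the 100-base windows of their canonical transcripts are identical, 10.1% of STAT5A and 7.45% of STAT5B. Their summed normalized CPM, which does not depend on how the counted reads were divided between them, was 70.3 and 71.7 in siControl and 59.2 and 58.3 in siLOC730101. The log2 ratio of the mean sums was -0.27, near that of STAT5B, which supplied most of the sum.

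The inhibitor SOCS2 was well expressed, and SOCS3 was barely counted. SOCS2 (chr12:93569814-93583487), which restrains growth hormone signalling and is known to respond to androgen in prostate cells, had 111.7 and 97.6 normalized CPM in siControl and 104.5 and 114.2 in siLOC730101. The groups overlapped, and SOCS2 was the only member with a log2 fold change above 0, at 0.063 (95% interval -0.13 to 0.25, edgeR adjusted p = 0.876). Its sign turned when siControl replicate 2 or siLOC730101 replicate 2 was left out. SOCS2 shares 277 exon bases (4.28%) with SOCS2-AS1 on the opposite strand, which had 811 and 568 counts in siControl and 568 and 538 in siLOC730101.

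SOCS3 (chr17:78356778-78360077), the inhibitor that binds gp130 directly, was not detected in 3 of the 4 libraries. Its counts were 0 and 0 in siControl, then 8 and 0 in siLOC730101. A count of 0 allows up to 3 counts, which is 0.0555 and 0.0641 normalized CPM in the siControl libraries and 0.0790 in siLOC730101 replicate 2. The 8 counts of siLOC730101 replicate 1 equal 0.195 normalized CPM. SOCS3 did not reach the counts needed for the test, and no fold is given for it. These limits cover counting error only, and they are too low if mates were counted apart.

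**Figure D3:**
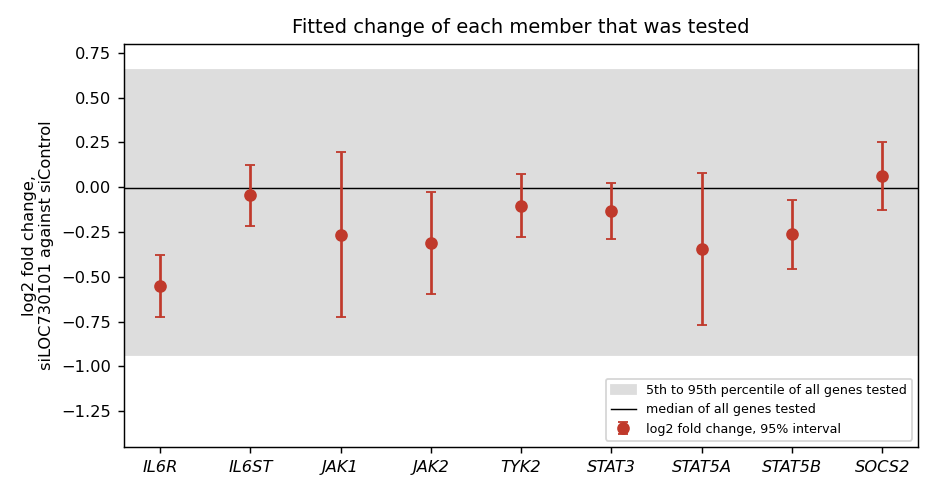
Log2 fold change (vertical axis, siLOC730101 against siControl) of the 9 members tested, with 95% intervals from edgeR; the grey band spans the 5th to 95th percentile of all 19349 genes tested, from -0.94 to 0.66. IL6R has the lowest estimate at -0.55, and the intervals of JAK2, STAT5B and IL6R lie wholly below 0.

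Across the set, 8 of the 9 members tested had a log2 fold change below 0, with a median of -0.26 and of -0.20 without IL6R. Over all genes tested the median was -0.0021 and 50.4% were below 0. In 5 members (IL6R, TYK2, STAT3, STAT5A and STAT5B) both siLOC730101 libraries lay below both siControl libraries, as they did in 20.5% of all genes tested. In 0 members did both lie above, against 21.3% of all genes tested. An unadjusted p under 0.05 was found for 3 members, namely IL6R, JAK2 and STAT5B, and for 2094 genes (10.8%) overall. The number of members below 0 went to 6 without siControl replicate 1 and to 9 without siControl replicate 2. The choice of the genes with results known bars any reading of these counts as a test.

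Levels can be compared between genes only per length. As normalized CPM per kilobase of exon in siControl, STAT3 was highest at 22.5 ± 0.88, followed by IL6R at 16.7 ± 0.25, SOCS2 at 16.2 ± 1.54 and IL6ST at 13.0 ± 0.62 (SD, n = 2). Then came TYK2 at 9.66 ± 0.17, STAT5B at 5.14 ± 0.0080 and JAK2 at 4.58 ± 0.78. STAT5A at 1.38 ± 0.14 and JAK1 at 0.805 ± 0.21 were lowest above SOCS3. The siControl values of IL6R and SOCS2 overlapped, and their order differed between the siControl libraries. Those of STAT5B and JAK2 also overlapped, although STAT5B was the higher in each siControl library. By this length the order within these pairs is not resolved. The siControl values of all other neighbours did not overlap.

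STAT3, both receptor chains and TYK2 thus stood well above the median gene, and JAK1 below it. STAT3 stood at the 89.8th and IL6R at the 85.8th percentile of all genes tested by level per kilobase in siControl. JAK1 stood at the 31.8th percentile; the median gene was at 2.58 CPM per kilobase. In siLOC730101, IL6R was at 11.4 ± 0.29, below IL6ST at 12.6 ± 0.69. The choice of length moved several levels by more than 1.5 times. Per kilobase of the canonical transcript, the siControl means were 51.2 for STAT3, 43.9 for SOCS2, 20.2 for IL6R, 19.4 for TYK2 and 17.4 for IL6ST, so IL6R and SOCS2 were near each other only by the exon length of the table. By that length STAT5B, at 12.23 and 12.26 in the siControl libraries, did not overlap JAK2, at 4.53 and 5.78. STAT5A at 2.33 and JAK1 at 2.08 were again lowest above SOCS3.

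**Figure D4:**
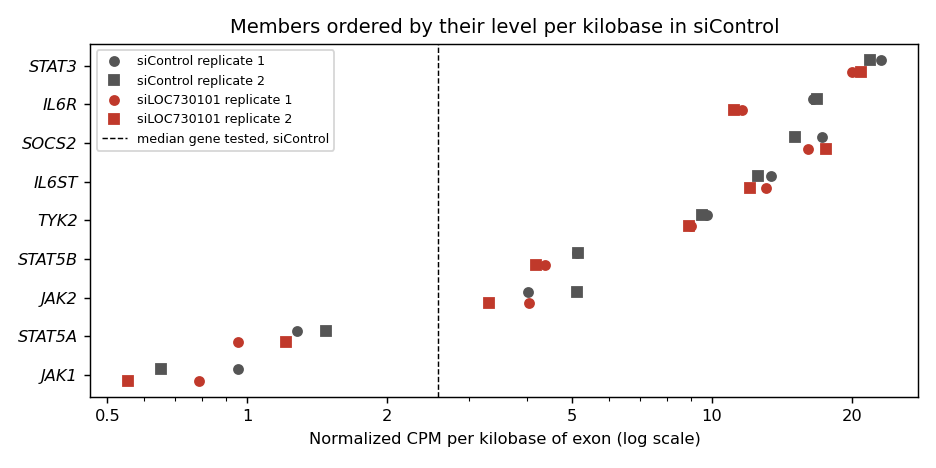
Normalized CPM per kilobase of exon (horizontal axis, log scale) of 9 members in each library, ordered by the siControl mean; grey points are siControl, red points siLOC730101, and the dashed line is the median gene tested in siControl at 2.58. STAT5A and JAK1 lie left of the line, and IL6R is the gene whose red points are farthest from its grey points among those right of it.

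The other genes of the pathway were taken as 90 genes in 7 lists by role, of which 69 were tested. None passed edgeR's test over all genes, where the smallest adjusted p was 0.154. Only 0.284% of all genes tested passed, so 0 of 69, and 0 in each list below, lies near that share. DESeq2 called 0 of the 43 to which it gave an adjusted p, with none given for the other 26. It called 297 of the 31960 genes it fitted. An unadjusted p under 0.05 was found for 3 of the 69, against 10.8% of all genes tested. Their median log2 fold change was 0.017, with 32 below and 37 above 0. In 6 of the 69 both siLOC730101 libraries lay below both siControl libraries, against 20.5% of all genes tested, and in 20 both lay above, against 21.3%.

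Of 8 ligands of the IL6 family, 4 were tested. IL6 itself had 0 and 4 counts in siControl and 0 and 0 in siLOC730101, and OSM had 0 counts in every library. LIF, a cytokine that signals through LIFR and gp130, had 171 and 161 counts in siControl and 151 and 123 in siLOC730101, a log2 fold change of 0.068 after scaling. CLCF1, another gp130 ligand, had 121, 45, 56 and 28 counts and a log2 fold change of -0.61 (edgeR adjusted p = 0.739) that turned to 0.13 without siControl replicate 1.

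The other receptor chains and the proteases that shed IL6R from the surface gave 0 calls among 6 tested, with a median log2 fold change of -0.018. OSMR, the oncostatin M receptor chain, had 29.7 and 28.2 normalized CPM in siControl and 26.4 and 23.4 in siLOC730101. Its groups did not overlap, and its log2 fold change of -0.22 did not pass (edgeR adjusted p = 0.539). IL27RA, at about 1 normalized CPM, had the highest value of this list at 0.40. LIFR was at 0.014, and the proteases ADAM10 and ADAM17 were at -0.13 and -0.050.

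Other receptors that signal through JAKs gave 0 calls among 15 tested, with a median of -0.014. IFNAR2, a chain of the type I interferon receptor, was lowest at -0.32, although 27.7% of its exon bases are shared with other genes. EPOR, the erythropoietin receptor, was at 0.15.

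In the rest of the JAK and STAT families, 3 genes were tested and 0 passed. STAT2, which carries interferon signals, was at -0.075. STAT6, which acts after IL4, had 113, 95, 80 and 90 counts and was at 0.067. JAK3 had 4 and 0 counts in siControl and 2 and 2 in siLOC730101, and STAT4 had 0 counts throughout. Both are known mainly from lymphoid cells.

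Among the other inhibitors, 16 of 16 were tested and 0 passed, with 9 below and 7 above 0. CISH, a classical STAT5-induced inhibitor, had 100 and 117 counts in siControl and 42 and 84 in siLOC730101. Both siLOC730101 counts were below both siControl counts, but in normalized CPM the groups overlapped, at 1.85 and 2.50 against 1.02 and 2.21, and the log2 fold change was -0.43 (SE 0.42, edgeR adjusted p = 0.789). SOCS1, SOCS4, SOCS5, SOCS6 and SOCS7 had log2 fold changes of 0.64, -0.053, -0.074, 0.082 and -0.22. SOCS1 was weakly counted, with 36, 50, 42 and 64 counts, and its value ranged from 0.24 to 1.02 when 1 library was left out. SH2B3 (LNK), an adaptor that restrains JAK2, was at 0.22.

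Positive adaptors gave 0 calls among 7 tested. SOS1, the exchange factor that links receptors to RAS, was lowest at -0.090, and GRB2, which recruits it, was highest at 0.11.

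The reported target genes of STAT3 and STAT5 had the highest median of the 7 lists. Of 26 genes, 18 were tested, 13 had a log2 fold change above 0 and 5 below, and the median was 0.15, or 0.11 over the 15 with a mean count above 50. In 9 of the 18 both siLOC730101 libraries lay above both siControl libraries, against 21.3% of all genes tested, and in 0 both lay below, against 20.5%. None passed the test, which 0.284% of all genes tested passed. FGA, counted only in the siLOC730101 libraries, is in both the 13 and the 9. The members and the lists were chosen with earlier results known. These counts are therefore a description, and a contrast with the members was not tested.

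CEBPB, a transcription factor gene of the acute phase response, had 109.5 and 112.6 normalized CPM in siControl and 125.1 and 145.3 in siLOC730101, a log2 fold change of 0.28 (edgeR adjusted p = 0.192). Without siLOC730101 replicate 1, which leaves only replicate 2 in that group, it was 0.40. BCL2L1, which encodes the survival protein BCL-XL, was at 0.20 (edgeR adjusted p = 0.509), and without siLOC730101 replicate 1 at 0.35. ABALON shares 41.3% of the exon bases of BCL2L1. FGA, the fibrinogen alpha chain gene, had 0 and 0 counts in siControl and 14 and 14 in siLOC730101 (edgeR adjusted p = 0.154). FGA had enough counts for the test only through the siLOC730101 libraries. Their mean was 5.93 times a floor of 3 counts in each siControl library. That floor is too low if mates were counted apart, so the ratio is not a lower bound. CEBPB, BCL2L1 and FGA were chosen after their values were seen. IGF1 was at 0.45, but 82.5% of its exon bases are shared with HELLPAR, and leaving out siControl replicate 2 gave 0.085, while leaving out siControl replicate 1 gave 0.96. CEBPD was lowest among those with a mean count above 50, at -0.24.

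**Figure D5:**
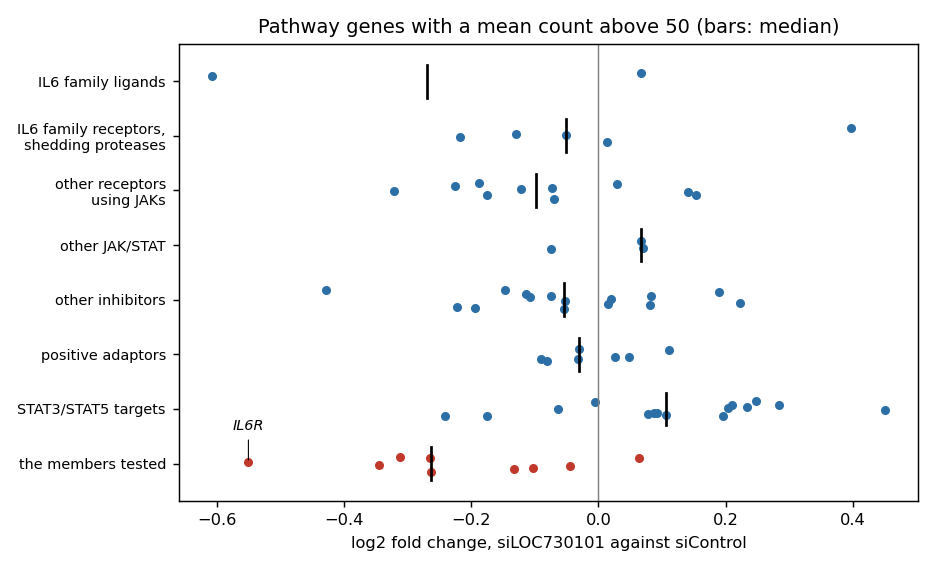
Log2 fold change (horizontal axis, siLOC730101 against siControl) of pathway genes with a mean count above 50 in 7 lists, in blue, and of the 9 members tested, in red; black bars are medians. The members have a median of -0.26 and the STAT3 and STAT5 targets of 0.11, and IL6R lies to the left of every other point except CLCF1 at -0.61.

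Activated STAT dimers bind palindromes of the form TTCNNNGAA, so the promoters were searched for it in windows from 250 bases before to 50 bases after each start (RefSeq, GRCh38.p14; the motif reads the same on both strands). It was found in 7.66% of 35116 windows and in 9.38% of 27305 genes. Of the 10 members, 9 had a window, and 0 of their 17 windows held the motif. Among the other pathway genes it was in 11 of the 69 that had a window (15.9%), which are not the same genes as the 69 tested. CISH and BCL6 held 4 each. The CISH pairs are shown because they are the plainest case of the motif beside a measured gene of the pathway. They lie on the minus strand, with the motif in capitals.

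CISH, bases -241 to -222 from the start, chr3:50611996-50612015: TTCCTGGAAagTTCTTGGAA
CISH, bases -129 to -104 from the start, chr3:50611878-50611903: TTCTAGGAAgacgctgcTTCCGGGAA

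Binding of a STAT protein to any of these sequences was not measured.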

How the data were processed

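Poly(A) RNA of DaroR cells was sequenced in 2 siControl and 2 siLOC730101 libraries. The deposited values are raw counts per gene, which the authors made with featureCounts 2.0.1 without normalization. The table header names hg38 and gencode v41, while the methods of the study name hg19 and STAR, and the submitters' processing notes list BWA and hg38. No paired-end or strand setting appears in the command of the header, and 66.0% to 70.1% of the counts from 1 to 20 were even, so mates may have been counted apart. All count columns were mapped to libraries. The 2 libraries of a group differed by more than sampling noise (chi-square per degree of freedom 11.3 and 14.2).

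Counts were filtered with filterByExpr, scaled with TMM and tested with the quasi-likelihood test of edgeR 4.0.16 (R 4.3.3) with Benjamini-Hochberg adjustment over 19349 genes. The biological coefficient of variation was 0.147. Intervals cover 95% and rest on the fitted standard error. Fold changes are log2, siLOC730101 against siControl. DESeq2 1.42.0, other scalings, filters, halved counts, a replicate block and leaving out each library were alternatives. The test was tried on simulated data.

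Gene lists and members were chosen with earlier results of these data known. The text names LOC730101, the 10 members, pathway genes past the threshold, the highest and lowest gene of each pathway list with a mean count above 50, JAK3, the other STAT, CISH and SOCS genes, counted genes overlapping a member on the opposite strand, and the 3 genes nearest to IL6R in pattern. Among the overlapping genes, RAVER2 shares 10 bases with JAK1 and had 1446, 1043, 1179 and 914 counts. The result of 1 gene of these lists, which stayed in the tests and counts, is not reported here. Genes outside this rule (IL6, OSM, LIFR, ADAM10, ADAM17, HAX1, IL6R-AS1, BCL6) were named after their values were seen. The 3′ UTRs came from GENCODE v44lift37 on GRCh37, joined by gene name, and their coordinates were not converted.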

Additional observations from a re-analysis of the deposited data

How the results depend on the processing

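IL6R was lower and passed the threshold in all 14 alternatives. Of 112 values for the other members tested, 110 had an adjusted p and 1 passed, that of JAK2 without siLOC730101 replicate 1. The number of genes past the threshold over all genes depended on the method. It was 41 higher and 14 lower, against 324 and 113 with no filter, 123 and 50 with a mean normalized count above 50, 234 and 63 with DESeq2, 87 and 24 with the legacy setting off, 113 and 35 with halved counts, and 35 lower with library size only. Leaving out 1 library gave 77 to 923 higher and 26 to 272 lower genes. The highest counts came without siLOC730101 replicate 1; the cause was not tested. With the replicate number as a block the counts were 485 and 167, and 1 other pathway gene (CEBPB, 0.28, adjusted p = 0.0197) passed. Same-numbered libraries did not deviate together (correlation 0.029 over 14245 genes), so the numbers were not taken to pair the samples. Leaving out 1 library gave 0 to 2 other pathway genes. Directions changed only when a library was left out, in 5 of 126 member values and 11 of 279 values of 20 pathway genes. The ranges were -0.094 to 0.0070 for IL6ST, -0.53 to 0.039 for JAK1, -0.028 to 0.17 for SOCS2, -1.11 to 0.13 for CLCF1, -0.018 to 0.15 for LIF, -0.63 to 0.083 for IFNAR2, -1.09 to 0.036 for CISH, -0.30 to 0.10 for SOS1, -0.56 to 0.032 for CEBPD, -0.084 to 0.21 for STAT6, -0.14 to 0.039 for SOCS4 and -0.18 to 0.039 for SOCS5. Without a change of direction, leaving out 1 library moved the value by more than 1.5 times for JAK2 (-0.48 to -0.12), STAT5A (-0.53 to -0.17), STAT2 (-0.13 to -0.0098), OSMR (-0.30 to -0.14), EPOR (0.073 to 0.24), SH2B3 (0.089 to 0.35), SOCS1 (0.24 to 1.02), SOCS6 (0.032 to 0.14) and IGF1 (0.085 to 0.96). With 2 libraries a group and 8 counts in all for SOCS3, a difference in that gene was not detectable at this depth.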
